A study of Mus musculus with 6 samples.

Results

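Txnip, the 4 Arrdc genes Arrdc1 to Arrdc4, Mlxip, Txn1 and Txn2 were followed through the RNA-seq of bone marrow-derived macrophages (BMDMs) given lipopolysaccharide (LPS) or PBS for 1 h. Txnip was picked because its count was lower in LPS by a larger factor than that of other well-counted genes in these same libraries, and the other 7 genes were added by name, as relatives or partners of its protein. All 8 were found by symbol among the 55335 genes of the count table, and all 8 passed the filter on low counts that left 15687 genes for testing. The library names mark both groups as wild type (WT). The cells came from bone marrow of C57BL/6 mice, which the study describes as males of 7 to 10 weeks. They were grown for 6 d in DMEM with serum and L929-conditioned medium, the usual supply of the macrophage growth factor M-CSF, so both groups shared genotype and growth medium. Total RNA was sequenced from 3 cultures given PBS and 3 given LPS. The LPS dose of these cultures and the glucose content of the medium were not given in the sources used here. The labels number the replicates 1 to 3 and call these numbers batches, but nothing states that they came from separate animals, so the p-values measure only the spread between these libraries, which may be technical.

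TXNIP, the protein made from Txnip, and the ARRDC proteins are alpha-arrestins, adaptors that bind membrane proteins and bring ubiquitin ligases of the NEDD4 type to them. TXNIP is the member of this family known for binding thioredoxin, the small redox protein encoded by Txn1, and it also lowers glucose uptake by sending glucose transporters into the cell. Txnip and Arrdc4 are known targets of MondoA, the glucose-sensing transcription factor encoded by Mlxip, and the Txnip transcript is known to turn over quickly. In macrophages TXNIP has been linked to the NLRP3 inflammasome.

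The upstream sequence is shown for 3 members. Txnip and Arrdc2 had the largest differences of the 8, while Arrdc4, which shares the MondoA link with Txnip, was slightly higher in LPS under the scaling used here and slightly lower under library size alone. Each line holds the 250 bases before the RefSeq start of the gene, 5′ to 3′ on the strand of the gene, on GRCm38.p6. The stretches are chr3:96557707-96557956 on the plus strand for Txnip, chr7:68749239-68749488 on the minus strand for Arrdc4 and chr8:70839721-70839970 on the minus strand for Arrdc2. Capitals mark every match on either strand to the E-box CACGTG, the carbohydrate response element with 1 mismatch allowed, the CCAAT box CCAAT, the forkhead motif TGTTTAC and the kappa B motif that NF-kappaB binds.
Txnip: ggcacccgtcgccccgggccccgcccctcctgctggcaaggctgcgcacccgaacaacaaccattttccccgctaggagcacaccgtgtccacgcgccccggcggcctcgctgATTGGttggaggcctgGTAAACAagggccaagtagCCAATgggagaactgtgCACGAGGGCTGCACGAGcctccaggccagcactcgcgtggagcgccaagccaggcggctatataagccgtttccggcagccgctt
Arrdc4: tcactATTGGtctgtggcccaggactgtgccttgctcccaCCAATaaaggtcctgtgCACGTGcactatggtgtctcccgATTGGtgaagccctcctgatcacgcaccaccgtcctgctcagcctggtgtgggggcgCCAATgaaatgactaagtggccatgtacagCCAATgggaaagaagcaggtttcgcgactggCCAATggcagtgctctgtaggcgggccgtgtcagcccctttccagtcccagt
Arrdc2: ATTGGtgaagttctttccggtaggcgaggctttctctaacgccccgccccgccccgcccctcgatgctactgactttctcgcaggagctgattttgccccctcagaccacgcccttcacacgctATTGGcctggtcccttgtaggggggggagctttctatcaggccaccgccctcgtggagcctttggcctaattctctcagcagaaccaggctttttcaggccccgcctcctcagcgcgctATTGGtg

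In the Txnip sequence, the capitals nearest the start were the match to the carbohydrate response element, at position -85. A CCAAT box lay on either side of a forkhead match further upstream, and no motif overlapped another. Arrdc4 held an E-box at position -193 and 6 CCAAT boxes, and Arrdc2 held 3 CCAAT boxes and none of the other motifs. The background was the set of 32851 RefSeq windows from 250 bases before to 50 after a start. Of these, 7.15% held an E-box, 2.36% the carbohydrate response element with 1 mismatch allowed, 37.4% a CCAAT box and 3.65% the forkhead motif. The exact carbohydrate response element stood in 0.119% of windows and the kappa B motif in 0.411%, and neither was found in a window of a member. Arrdc3, Mlxip and Txn2 held CCAAT boxes alone, and the windows of Arrdc1 and Txn1 held none of these motifs. A match describes the letters and not a bound site.

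Txnip (ENSMUSG00000038393, GRCm38 chr3:96557957-96561883, plus strand) had 53320, 49349 and 50147 counts in the PBS libraries of replicates 1, 2 and 3. The LPS libraries held 1122, 1094 and 1104 counts. The groups lay far apart, and the 3 libraries within each were close to one another. Its level in normalised CPM, which are counts scaled by total and by the TMM factor of edgeR, was 1100 ± 17.7 in PBS and 33.1 ± 0.600 in LPS (SD, n = 3), or 33.2-fold lower after LPS. On the log2 scale the difference was -5.05 with a standard error of 0.04, and within batches 1, 2 and 3 it was -5.07, -5.03 and -5.07. Since Txnip was chosen for this difference, the values describe the choice and carry no test. In bulk RNA, fewer cells of a type and less RNA per cell cannot be told apart.

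Txnip was an abundant transcript in the PBS cells. It took 0.128%, 0.126% and 0.125% of all counts in the PBS libraries and between 0.00283% and 0.00291% in the LPS libraries. By its level in CPM per kilobase of exon, it stood at place 69, 69 and 71 of 15671 genes in the PBS libraries and at place 3851, 3854 and 3921 in the LPS libraries. When a mean count of 50 or more per library was required, the next largest drop belonged to Gm43481, with a log2 fold change of -3.86. Without that minimum, Gm49435, Gm16534, Gm45540 and Gm19409 stood ahead of Txnip in the fit, each with 0 to 2 counts in every LPS library.

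The exons of Txnip share 606 of 3123 bp with Gm15441, an annotated antisense gene on the minus strand. Gm15441 had 79, 93 and 64 counts in PBS and 5, 15 and 17 in LPS. It also fell, by a log2 difference of -2.19 with a standard error of 0.29 and an adjusted p = 2.68e-06. Every adjusted p comes from the edgeR quasi-likelihood fit, with the Benjamini-Hochberg method applied across the 15687 genes. The library kit keeps strand, but the strand setting of the counting was not given in the sources used here, so reads of the 2 genes may not have been told apart. Its counts were small beside those of Txnip in every library.

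**Figure D1:**
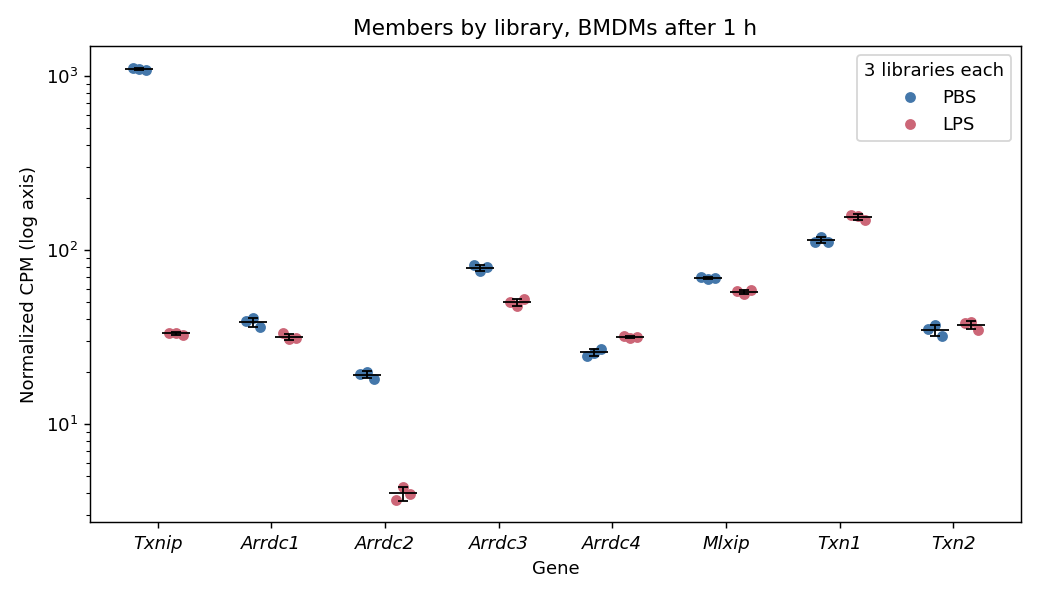
Normalised CPM (log axis) of the 8 genes in each library, with PBS in blue and LPS in red; points are libraries and black marks the mean ± SD of 3. Txnip drops from about the top of the axis, 1100 CPM, to 33.1 CPM, Arrdc2 from 19.2 to 3.98 CPM, and the groups of Txn2 overlap.

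Arrdc2, whose protein is less studied than its relatives, was the other member with a large difference. Arrdc2 (ENSMUSG00000002910, chr8:70835129-70839720, minus strand) had 926, 899 and 840 counts in PBS and 122, 142 and 135 in LPS. Every LPS library lay below every PBS library. The level fell from 19.2 ± 0.877 to 3.98 ± 0.358 CPM (SD, n = 3), which is 4.81-fold lower. The log2 fold change was -2.27 with a standard error of 0.08 (adjusted p = 3.36e-14, edgeR), and it was -2.42, -2.19 and -2.20 within the 3 batches. Arrdc2 was thus the single member besides Txnip past both criteria of the study, which ask for a log2 fold change beyond 1 in either direction and an adjusted p below 0.05. Of all tested genes, 20.9% passed both criteria and 10.4% passed them in the falling direction, and since Txnip was chosen on this contrast, the count of 2 members is read no further.

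ARRDC3 is known as an adaptor that brings NEDD4-type ligases to beta-adrenergic receptors. Arrdc3 (ENSMUSG00000074794, chr13:80883384-80896042, plus strand) had 3907, 3409 and 3672 counts in PBS and 1687, 1555 and 1781 in LPS. All LPS libraries lay below the PBS libraries, also in CPM, where the level went from 79.0 ± 3.33 to 50.1 ± 2.35 (SD, n = 3). The log2 fold change of -0.66 passed the adjusted p but not the fold criterion (standard error 0.04, adjusted p = 2.31e-10, edgeR). It was -0.71, -0.66 and -0.60 within batches. Among the Arrdc genes, Arrdc3 was the one with the most counts in every library.

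ARRDC1 is known for driving the budding of small vesicles from the plasma membrane. Arrdc1 (ENSMUSG00000026972, chr2:24925352-24935252, minus strand) had 1867, 1829 and 1659 counts in PBS and 1117, 1003 and 1062 in LPS. In CPM the groups were much closer, at 38.5 ± 2.34 and 31.7 ± 1.36 (SD, n = 3), but did not overlap. On the log2 scale the difference was -0.28 (standard error 0.05, adjusted p = 1.16e-04, edgeR), with -0.24, -0.40 and -0.20 within batches.

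ARRDC4, like TXNIP, has been described as a brake on glucose uptake, and its gene answers to MondoA. Arrdc4 (ENSMUSG00000042659, chr7:68736995-68749241, minus strand) had 1177, 1160 and 1244 counts in PBS and 1071, 1018 and 1083 in LPS. The counts were somewhat lower in LPS, whereas the level in CPM was higher, at 31.6 ± 0.394 against 25.8 ± 1.13 in PBS (SD, n = 3), with no overlap. With TMM scaling the log2 fold change was 0.30 with a standard error of 0.05 (adjusted p = 3.11e-05, edgeR), and it was 0.15 with upper quartile scaling and -0.11 with library size alone (adjusted p = 0.0476, edgeR). Its direction therefore rests on the scaling, and under each of these scalings its difference was far from that of Txnip.

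Mlxip encodes MondoA. Mlxip (ENSMUSG00000038342, chr5:123394798-123457932, plus strand) had 3342, 3095 and 3200 counts in PBS and 1946, 1821 and 1999 in LPS. The groups did not overlap, and the level was 69.3 ± 0.841 CPM in PBS and 57.5 ± 1.53 CPM in LPS (SD, n = 3). Its log2 fold change of -0.27 did not reach the fold criterion (standard error 0.04, adjusted p = 4.03e-06, edgeR), and it was -0.28, -0.30 and -0.24 within batches. Mlxip shares 267 of 8326 bp of exon with the antisense gene Gm15747. That gene had 20, 18 and 27 counts in PBS and 3, 2 and 6 in LPS (log2 fold change -2.06, standard error 0.43, adjusted p = 3.65e-04, edgeR), few beside those of Mlxip.

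Txn1 encodes the cytosolic thioredoxin to which TXNIP binds. Txn1 (ENSMUSG00000028367, chr4:57943373-57956411, minus strand) had 5332, 5387 and 5155 counts in PBS and 5341, 5131 and 5043 in LPS. The counts of the groups were alike, and the scaling set them apart, with 114 ± 4.27 CPM in PBS and 155 ± 5.86 CPM in LPS (SD, n = 3). With TMM scaling the log2 fold change was 0.44 with a standard error of 0.04 (adjusted p = 9.81e-09, edgeR), and it was 0.03 with library size alone (adjusted p = 0.429, edgeR). Within batches the TMM-scaled values were 0.51, 0.40 and 0.41. The pseudogene Txn-ps1 is 95.8% identical to the Txn1 transcript over 309 bp and had 9, 7 and 7 counts in PBS and 10, 7 and 7 in LPS, so reads it might exchange with Txn1 were few.

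Txn2 encodes the mitochondrial thioredoxin. Txn2 (ENSMUSG00000005354, chr15:77915047-77929006, minus strand) had 1677, 1669 and 1474 counts in PBS and 1278, 1257 and 1182 in LPS. In CPM the groups overlapped, with 34.7 ± 2.54 in PBS and 37.1 ± 2.07 in LPS (SD, n = 3). Its log2 fold change of 0.10 did not pass (standard error 0.06, adjusted p = 0.137, edgeR). A block for the replicate number gave an adjusted p of 0.0382 (edgeR), and the sign turned with the scaling, to -0.046 with upper quartile (adjusted p = 0.477, edgeR) and to -0.31 with library size alone, where it passed as lower in LPS (adjusted p = 7.42e-05, edgeR).

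Of the 7 members other than Txnip, 4 were lower and 2, Arrdc4 and Txn1, were higher in LPS at an adjusted p under 0.05 with TMM scaling, and with library size alone Arrdc4 and Txn2 passed as lower and Txn1 did not pass. Txn2 did not pass with TMM scaling. Of all tested genes, 67.7% had an adjusted p under 0.05, with 34.9% lower and 32.9% higher. The libraries of the groups did not overlap in CPM for 7 of the 8 members and for 70.5% of all tested genes. The median log2 fold change was -0.28 over the members, -0.27 without Txnip and -0.01 over all tested genes. Apart from Txnip and Arrdc2, the members lay between -0.66 for Arrdc3 and 0.44 for Txn1.

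**Figure D2:**
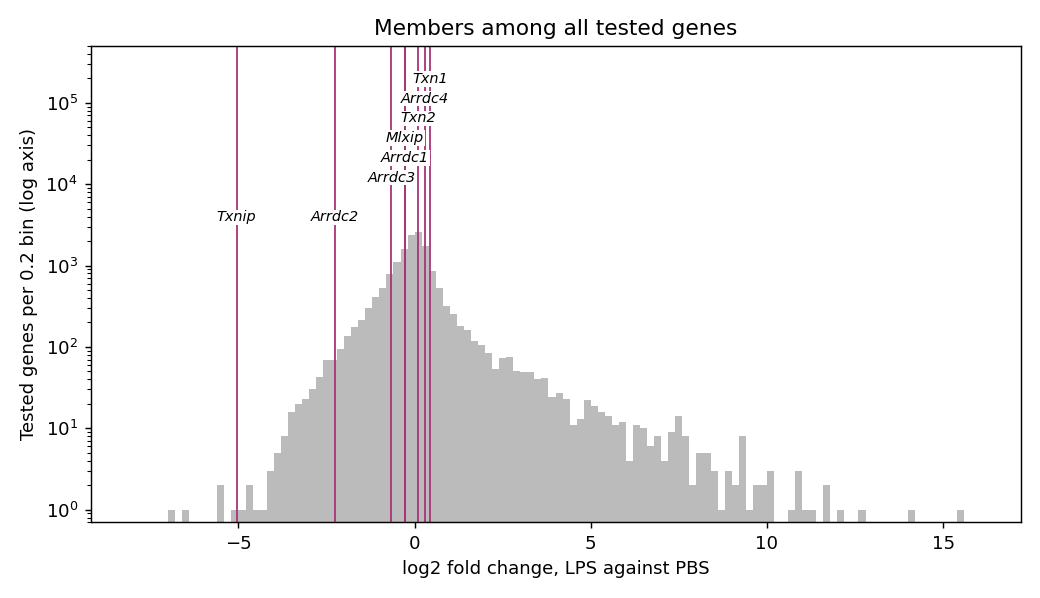
Number of tested genes per bin of 0.2 in log2 fold change, LPS against PBS (grey bars, log axis), with a line for each of the 8 genes. Txnip at -5.05 lies far to the left, with a few low-count genes beyond it, Arrdc2 at -2.27 lies in the left flank, and the other 6 lie between -0.66 and 0.44.

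The scaling between libraries changed directions and calls among the members with small differences. The TMM factors were 1.15 in the PBS libraries and between 0.864 and 0.872 in the LPS libraries. The median over all tested genes moved by -0.40 on the log2 scale when library size alone was used, and with upper quartile scaling it moved by -0.14. The share of genes past both criteria that had risen was 50.4% with TMM and 29.0% with library size alone. Txnip had a log2 fold change of -5.46 and Arrdc2 of -2.67 with library size alone. Arrdc3 reached -1.06 there and so passed both criteria, which took the count of fallen members to 3. Arrdc1 and Mlxip stayed lower in LPS, at -0.68 and -0.67, whereas Arrdc4 and Txn2 changed sign.

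**Figure D3:**
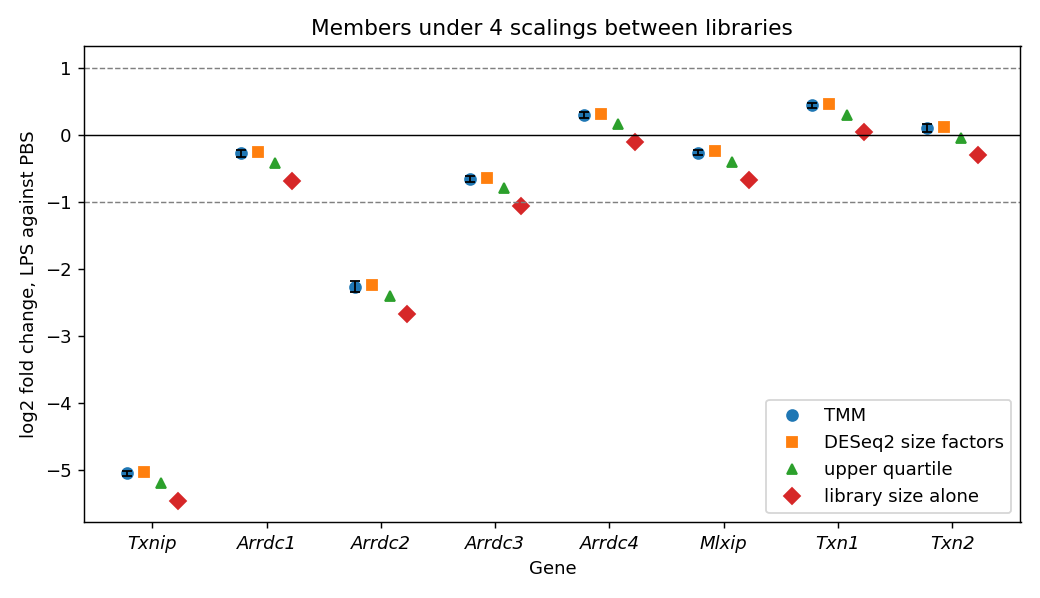
Log2 fold change, LPS against PBS, of the 8 genes with 4 scalings; bars are the standard error with TMM and dashed lines mark the fold criterion. Library size alone lies lowest for each gene and takes Arrdc4 to -0.11 and Txn2 to -0.31, while Txnip stays at or below -5.03.

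Ratios of counts within a library need no scaling between libraries. Those without Txnip were chosen after their values were seen. The PBS libraries held 10.0, 9.16 and 9.73 Txnip reads for each Txn1 read, and the LPS libraries held 0.210, 0.213 and 0.219. Txnip thus went from outnumbering its binding partner in reads to being outnumbered by it, with a mean ratio 45.0-fold lower. Against the summed reads of the 4 Arrdc genes, the Txnip ratio was 6.77, 6.76 and 6.76 in PBS and 0.281, 0.294 and 0.272 in LPS. That mean ratio was 24.0-fold lower in LPS. Both ratios describe the choice of Txnip, which was made on this difference.

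Among the relatives, the ratio of Arrdc4 to Arrdc2 reads was 1.27, 1.29 and 1.48 in PBS and 8.78, 7.17 and 8.02 in LPS. The mean ratio was 5.93-fold higher in LPS, without overlap between the groups. The ratio of Arrdc3 to Arrdc4 reads was 3.32, 2.94 and 2.95 in PBS and 1.58, 1.53 and 1.64 in LPS. Both pairs of relatives therefore changed unequally, whatever the scaling. Txnrd1, which encodes the reductase that recharges thioredoxin, had 1.02, 1.03 and 1.07 reads for each Txn1 read in PBS and 4.11, 4.16 and 4.12 in LPS. Its mean ratio was 3.97-fold higher in LPS. For each of these 3 ratios an exact two-sided permutation test gave p = 0.1, the smallest that 3 libraries against 3 allow. Groups without overlap always give this value, and the ratios were chosen after their values were seen, so the test adds no support.

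**Figure D4:**
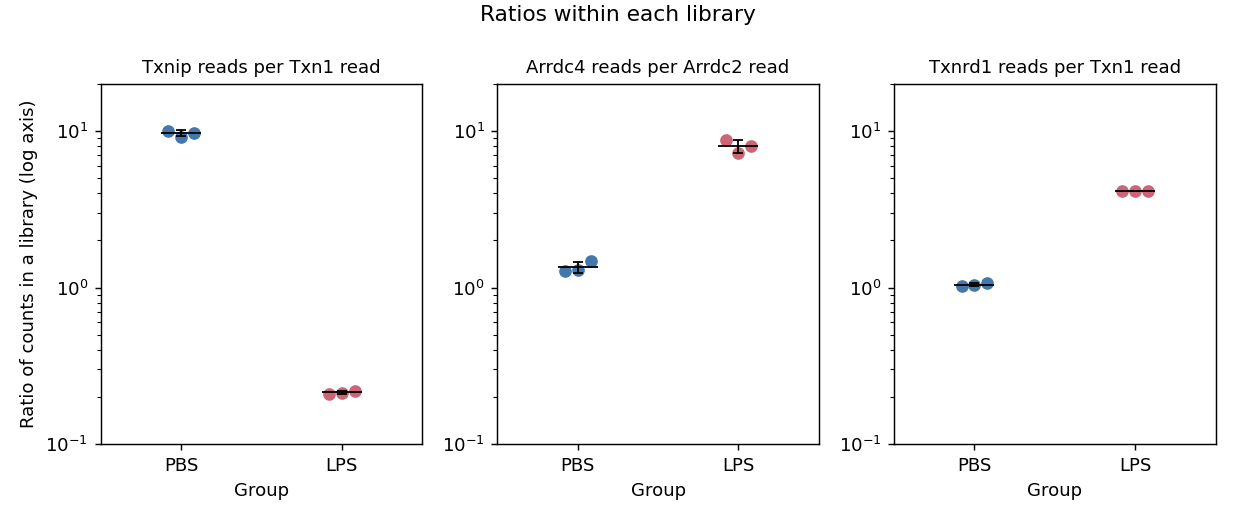
Ratio of counts within each library (log axis) for Txnip to Txn1, Arrdc4 to Arrdc2 and Txnrd1 to Txn1; points are libraries and black marks the mean ± SD of 3. The first ratio goes from 9.63 in PBS to 0.214 in LPS, and the others go from 1.35 to 7.99 and from 1.04 to 4.13.

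Levels of different genes were ordered in CPM per kilobase of exon. In PBS, Txnip was highest at 352 ± 5.66 CPM per kilobase, followed by Txn1 at 109 ± 4.06 (SD, n = 3). Arrdc1 at 15.4 ± 0.930 and Arrdc3 at 12.6 ± 0.532 CPM per kilobase came next, and the ranges of these first 4 were apart. Mlxip at 8.33 ± 0.101 and Txn2 at 8.25 ± 0.603 CPM per kilobase could not be ordered, and neither could Arrdc4 at 6.38 ± 0.279 and Arrdc2 at 5.94 ± 0.271. After LPS, Txn1 led at 147 ± 5.57 CPM per kilobase. Arrdc1 at 12.6 ± 0.541 and Txnip at 10.6 ± 0.192 CPM per kilobase followed, so that Txnip stood among the Arrdc genes. Txn2 at 8.82 ± 0.492, Arrdc3 at 7.99 ± 0.375 and Arrdc4 at 7.83 ± 0.0976 CPM per kilobase overlapped their neighbours in this order. Mlxip was at 6.91 ± 0.184 and Arrdc2, the lowest, at 1.23 ± 0.111 CPM per kilobase. With the length of the longest annotated transcript in place of all exons, Txnip was again at place 1 in PBS, but at place 5 and not 3 in LPS. That length also set both unordered pairs apart in PBS, with the lowest library of Txn2 at 15.6 and the highest of Mlxip at 9.61 CPM per kilobase, and the lowest of Arrdc2 at 7.73 and the highest of Arrdc4 at 6.90, so the order of these genes depends on the length used.

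The genes that work with TXNIP and thioredoxin were taken from 6 lists with 36 genes, of which 31 were tested. The lists were chosen with earlier results of these data known, so the counts below describe the lists and do not test them for enrichment. Past both criteria 9 rose and 0 fell, beside 10.5% rising and 10.4% falling among all tested genes. The median log2 fold change of the 31 genes was 0.25. Library size alone left 7 of the 9 rises, without Prdx6 and Map3k5, and upper quartile scaling left 8, without Prdx6. By adjusted p alone, 18 of the 31 were higher and 3 were lower in LPS. Of all tested genes, 32.9% were higher and 34.9% lower by that rule, and 67.7% passed in either direction.

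**Figure D5:**
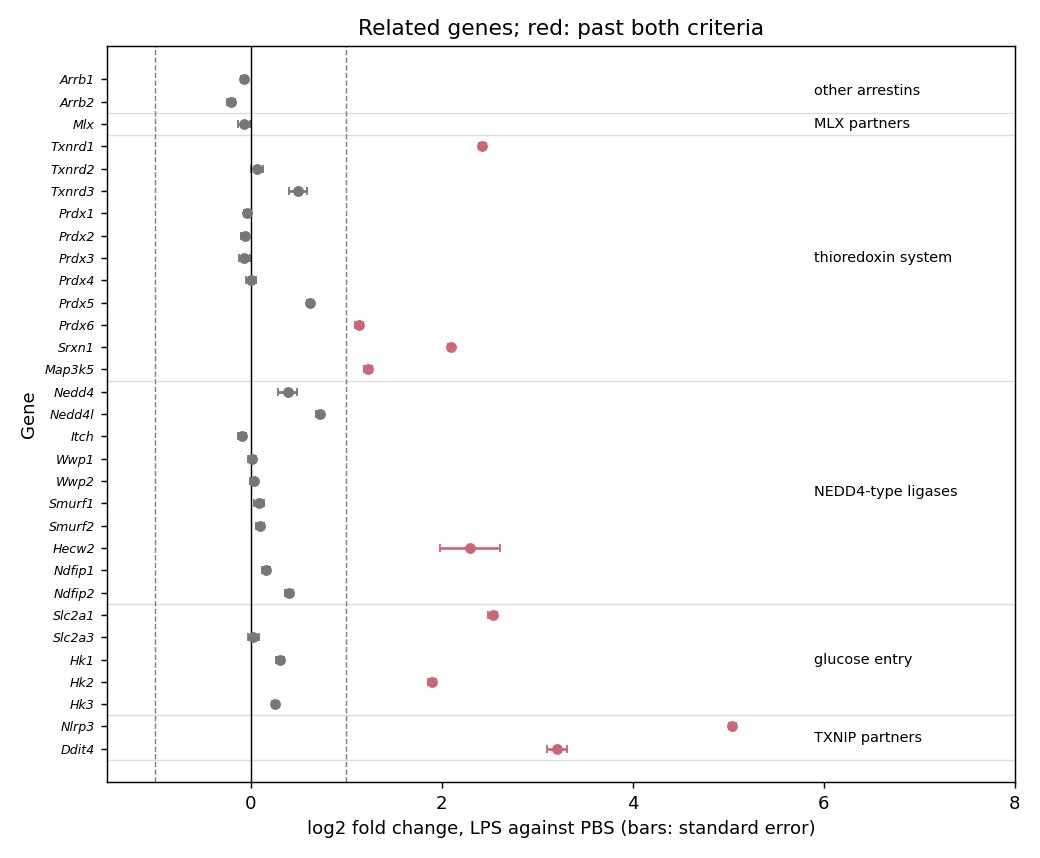
Log2 fold change, LPS against PBS, of the 31 tested genes in the 6 lists, with bars for the standard error and dashed lines at the fold criterion; red marks genes past both criteria. The 9 red genes all lie to the right, up to Nlrp3 at 5.04, and none lies past the left line.

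The thioredoxin system was the list with the most rises, 4 of 11 genes, beside 10.5% of all tested genes. Txnrd1 had 5454, 5562 and 5496 counts in PBS and 21942, 21323 and 20799 in LPS (log2 fold change 2.43, standard error 0.04, adjusted p = 1.76e-19, edgeR). Srxn1, which encodes sulfiredoxin and repairs overoxidised peroxiredoxins, rose from 72.3 ± 1.47 to 310 ± 2.30 CPM (adjusted p = 1.16e-19, edgeR). Prdx6, a peroxiredoxin that draws on glutathione rather than on thioredoxin, rose from 34.8 ± 1.30 to 76.5 ± 1.16 CPM (log2 fold change 1.14, standard error 0.04, adjusted p = 2.36e-14, edgeR). Map3k5 encodes ASK1, the stress kinase that reduced thioredoxin holds inactive. It rose from 27.1 ± 0.856 to 63.5 ± 1.92 CPM (log2 fold change 1.23, standard error 0.04, adjusted p = 2.20e-14, edgeR). The other 7 genes of the list, among them the peroxiredoxins 1 to 5, did not reach the fold criterion.

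The genes of glucose entry and the partners of TXNIP also held rises and no falls. Slc2a1 encodes GLUT1, the transporter that TXNIP is known to pull from the membrane. It had 904, 855 and 876 counts in PBS and 3763, 3705 and 3526 in LPS (log2 fold change 2.53, standard error 0.04, adjusted p = 5.47e-19, edgeR). Hk2, the inducible hexokinase, rose from 52.5 ± 2.38 to 196 ± 12.1 CPM (log2 fold change 1.90, standard error 0.05, adjusted p = 7.27e-17, edgeR). These were 2 of the 5 tested genes of glucose entry, beside 10.5% of all tested genes that rose past both criteria. Nlrp3, which encodes the inflammasome sensor, had 2199, 2076 and 2170 counts in PBS and 50895, 51546 and 50917 in LPS (log2 fold change 5.04, standard error 0.04, adjusted p = 8.61e-24, edgeR). Ddit4, which encodes REDD1, a stress protein that forms a complex with TXNIP, rose from 1.23 ± 0.0820 to 11.4 ± 0.505 CPM (log2 fold change 3.21, standard error 0.11, adjusted p = 7.98e-15, edgeR).

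The ligases and remaining arrestins lay, with the exception of Hecw2, within the fold criterion. Of 10 tested NEDD4-type ligases and their adaptors, Hecw2 alone passed both criteria, beside 10.5% of all tested genes that rose past both. It did so from few reads, with 5, 10 and 12 counts in PBS and 30, 35 and 32 in LPS (log2 fold change 2.30, standard error 0.31, adjusted p = 3.65e-06, edgeR). The median log2 fold change of this list was 0.13. The 2 tested arrestins outside the ARRDC family lay between -0.21 and -0.07, and Arrdc5, the remaining alpha-arrestin gene, had 0 counts in all 6 libraries. Mlx, the tested partner of MondoA, had a log2 fold change of -0.07 and did not pass the adjusted p. Mlxipl, which encodes the related glucose sensor ChREBP, was left untested with 4 to 14 counts per library.

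The profile of Txnip over the 6 libraries was compared with those of 12136 genes whose mean count was 50 or more. By Euclidean distance between centred log2 CPM values, the nearest were Zfp273 at 1.80, E130102H24Rik at 1.84, Zfp128 at 1.90, Dnajc28 at 1.91 and Gm43481 at 2.02. Because nearly all of the profile is the step between the groups, this measure finds the genes with the next largest drops, with log2 fold changes from -3.86 to -3.60. They were far scarcer than Txnip, with mean levels from 2.36 to 7.04 CPM in PBS. Zfp273, for example, had 239, 227 and 222 counts in PBS and 9, 12 and 15 in LPS. None of the 5 had a PBS level near that of Txnip.

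The cells carried the markers of their label. The library totals lay between 37787611 and 41516330 counts, so that 3 counts corresponded to 0.0630 to 0.0919 CPM. All marker sums are in CPM scaled by TMM, so differences between the groups in these sums rest on that scaling. The 7 macrophage markers summed to between 29548 and 30823 CPM in PBS and between 32289 and 32639 CPM in LPS. Most of this sum was Lyz2, with means of 23272 CPM in PBS and 24224 CPM in LPS. Its raw counts went the other way, with 1129279, 1054422 and 1050212 in PBS and 809377, 785254 and 833678 in LPS. By adjusted p with TMM scaling, 5 of the 7 macrophage markers were higher in LPS, 1 did not pass and 1, Fcgr1, was lower (log2 fold change -0.48). Of all tested genes, 32.9% were higher and 34.9% lower by that rule. The 5 log2 fold changes lay between 0.06 and 0.35. With library size alone the median over all tested genes moved by -0.40, so the direction of these 5 rests on the scaling. Of other cell types, the 4 T cell markers stayed at or under 0.558 CPM in sum, and the 4 B cell markers at or under 3.40 CPM. The 6 neutrophil markers summed to 40.7 to 43.8 CPM in PBS and 53.5 to 58.0 CPM in LPS. Ly6g was at the floor of 3 counts, while the other 5 were counted well enough to be tested. Of these 5, 4 were higher in LPS by adjusted p with TMM scaling and 1 did not pass, beside 32.9% higher among all tested genes. None of them reached the fold criterion. The 4 fibroblast markers summed to 11.3 to 12.2 CPM in PBS and 13.1 to 14.3 CPM in LPS. With TMM scaling the 4 dendritic cell markers all rose past both criteria, beside 10.5% of all tested genes. Their sum went from 3.15 to 4.01 CPM in PBS to 9.62 to 10.6 CPM in LPS, and their part in the results was not tested.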

How the data were processed

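Total RNA of 6 BMDM libraries was prepared with a stranded kit. According to the submitters' processing notes, FastQC 0.11.9, HISAT2 2.1.0, SAMtools 1.17 and featureCounts 2.0.0 were used on GRCm38. The authors deposited unnormalised read counts per gene. The annotation, strand setting and treatment of multi-mapping reads of the counting were not given in the sources used here. Symbols and coordinates came from GENCODE M21 on GRCm38, which matched 55154 of 55335 identifiers with the version removed.

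Counts were tested in R 4.3.3 with edgeR 4.0.16 (filterByExpr, TMM, quasi-likelihood test, Benjamini-Hochberg adjustment over 15687 genes). CPM are scaled by TMM, means ± SD are over 3 libraries, and standard errors derive from the F statistic. A gene was counted as risen or fallen when its adjusted p was below 0.05 and its log2 fold change beyond 1 in either direction, as the study did. The members, the lists and their tests were chosen with earlier results of these data known. Named were all members, list genes past the criteria or a log2 fold change of 1, the 5 nearest profiles and genes sharing exon bases with a member. Arrdc5, Mlx, Mlxipl, the low-count genes ahead of Txnip, Ly6g, Lyz2, Fcgr1 and Txn-ps1 were named in addition, after their values were seen.

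Near copies were sought among annotated transcripts with blastn 2.17.0 (at least 101 bp, the read length, at 95% identity). Promoter windows are from RefSeq, which held all 8 members, with 3 windows for Arrdc3. Protein features were not analysed here. The labels call the replicate numbers batches, which would pair the samples. Across genes, the deviation from the group mean in a PBS library and the LPS library of the same number correlated at -0.0139, 0.0822 and 0.0387. Libraries of unlike number correlated at -0.0817 to 0.0446, which overlaps these values. A fit with the number as a block stood beside the main fit, which had none. The study describes pairwise comparisons between conditions, and whether they held a batch term was not given in the sources used here.

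Alternatives were scaling by library size alone, by upper quartile or by the size factors of DESeq2, no filter beyond 1 count, at least 10 counts in every library, DESeq2 1.42.0, limma voom (limma 3.58.1), the block, leaving out each library, and the length of the longest transcript. The procedures were tested on simulated data with equally many genes raised and lowered, a setting that does not test the scaling between these libraries. The totals of 37787611 to 41516330 counts per library limit precision by counting error alone, and the reads carry no molecular identifiers.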

Additional observations from a re-analysis of the deposited data

How the results depend on the processing

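For the members, the called list genes, the nearest profiles and the antisense genes, 331 values under alternatives were computed for 24 genes. Of these values, 325 had the same direction and the same side of an adjusted p of 0.05. Txnip, the called list genes and the nearest profiles had been picked for large differences in these same libraries. Their agreement was therefore largely fixed in advance, and the number 325 is no measure of stability. The values that changed were all of Arrdc4, Txn1 and Txn2. With library size alone, the log2 fold change of Arrdc4 reversed to -0.11 and that of Txn2 to -0.31, both past the threshold (adjusted p = 0.0476 and 7.42e-05, edgeR), and Txn1 was no longer past the threshold at 0.03 (adjusted p = 0.429, edgeR). With upper quartile scaling Txn2 reversed to -0.046. Without PBS replicate 2, Txn2 was at 0.14 and passed (adjusted p = 0.0360, edgeR). With the replicate block it was at 0.10 and passed (adjusted p = 0.0382, edgeR), and the block changed no other call among these genes.

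Txnip ranged from -5.06 to -5.04 with a library left out and from -5.46 to -5.03 over all alternatives, and Arrdc2 from -2.67 to -2.21. Over all genes, 2168 were past both criteria and 1027 of them had fallen with at least 10 counts in every library, against 3277 and 1624. With library size alone 2964 had fallen. With a library left out, between 3370 and 3420 were past both criteria, of which 1635 to 1711 had fallen. The list genes that rose numbered 7 to 9 over all alternatives, and 0 fell. The filter of 10 counts left 5 of the 24 genes untested, which were Hecw2, Gm15441, Gm15747, Gm43481 and Zfp273. The ratio of Txnip to Txn1 reads ranged from 9.44 to 9.86 in PBS and from 0.212 to 0.216 in LPS with a library left out. With the longest transcript as length, Txnip stood at place 5 in LPS.

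With 3 libraries per group and a standard error of 0.06, the log2 difference of 0.10 for Txn2 was not detectable by the main test. The small differences of Arrdc1, Arrdc4, Mlxip, Txn1 and Txn2 rest on the scaling for their size. Arrdc3 stayed lower in LPS under all alternatives, but its call rests on the scaling. Its value moved from -0.66 with TMM to -1.06 with library size alone, where it passed both criteria. The differences of Txnip and Arrdc2 exceeded the shift in the median of all genes between scalings. How much of the Txnip and Mlxip counts came from antisense reads was not tested.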
